A study of Mus musculus with 40 samples.

Results

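The final growth step of the mouse oocyte was examined by comparing oocytes of large antral follicles with oocytes of small antral follicles. Samples were chosen by the stage in their titles and by no measured value. This gave 16 of the 40 samples of the series, 4 large antral and 4 small antral samples on each of 2 Affymetrix array types with separate probe sets, 430A and 430B. Large antral samples pooled 20 oocytes from SJLB6 females 24 days old, and small antral samples pooled 30 oocytes from SJLB6 females 17 days old. The labels name no allele and no treatment in either group. For small antral samples 2 to 4 on 430B the protocol text instead gives an age of 12 days and 60 oocytes, which is the text of the secondary stage, and the stage in the title was kept. Over 87 genes that changed from secondary to small antral oocytes on 430A, these 3 samples moved from secondary in the same direction by medians of 0.62, 0.5 and 0.4 on the log2 scale (70, 66 and 62 genes), against 0.43 (62 genes) for small antral sample 1. Age and pool size move with the stage, so the 3 cannot be told apart. Primary and secondary follicle oocytes (6 days old with 90 oocytes, and 12 days old with 60) had 4 arrays each on both types and supplied levels at earlier stages. The labels do not tie a sample to animals, so p-values measure the spread between these samples.

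A growing oocyte transcribes its genome heavily and stores much of the mRNA for maturation and the first cleavages, when transcription is off. While the fluid-filled antrum forms and expands, the oocyte completes its growth, gains the ability to resume meiosis and, towards the end, silences transcription as chromatin condenses around the nucleolus. Throughout, it secretes the zona pellucida and growth factors that act on the granulosa cells, with which it exchanges metabolites through gap junctions. The stored messages are held by RNA-binding proteins, and their poly(A) tails are shortened or lengthened in the cytoplasm. The labelling assay used here primes at poly(A) tails, so the amount of a transcript and the length of its tail cannot be told apart.

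On 430A, 1844 of 14924 tested probe sets (12.4%) differed between large and small antral oocytes at a limma adjusted p under 0.05, of which 807 were higher (5.41%) and 1037 lower (6.95%) in large antral oocytes. On 430B, where signals were noisier, 308 of 17887 (1.72%) differed, 79 higher (0.442%) and 229 lower (1.28%). Standard errors of the log2 changes had a median of 0.16 on 430A, against 0.34 on 430B. Most changes were modest: 63 rises and 92 falls on 430A, and 13 and 71 on 430B, reached 2-fold. The step from primary to secondary oocytes gave 3088 calls on 430A (20.7%) and the step from secondary to small antral oocytes gave 2752 (18.4%). With 1 probe set taken per gene over both types, 490 of 14925 genes rose (3.28%) and 759 fell (5.09%), together 8.37%. This pools 9193 genes read on 430A, of which 4.84% rose and 7.23% fell, with 5732 read on 430B alone, of which 0.785% rose and 1.64% fell. Most lists below are read mainly on 430A, so the 430A shares are the nearer background for them.

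Array signals are a linear brightness per probe set, rescaled here so that every array had the same trimmed mean. The 4 large antral arrays of 430A correlated at 0.978 to 0.981 on average with one another, and the 4 small antral arrays at 0.964 to 0.966. Within the small antral arrays of 430A, replicates 1 and 4 (r = 0.973) and replicates 2 and 3 (r = 0.97) were closer to each other than the cross pairs (0.96 to 0.965). Without replicates 1 and 4 the calls on 430A numbered 1042, and without replicates 2 and 3 they numbered 2215. Of the 1844 probe sets called with all 4 arrays, 528 were called both ways and 0 changed sign. On 430B, leaving out the 3 small antral samples with the other protocol text leaves 1 small antral array, which is assumed to vary like the other groups, and then 181 probe sets were called higher and 106 lower. Leaving out any 1 array of 430B kept falls in excess of rises. Markers of granulosa and cumulus cells summed to 4692.0 to 4976.2 on the large antral arrays of 430A and 3824.3 to 4945.6 on the small antral arrays. Among these 25 markers, 9 stayed under a signal of 100 on all 8 arrays, including Amh, Amhr2 and Inhba. The others, including Fshr, Inha, Inhbb, Kitl and Fst, exceeded 100 on at least 1 array. On 430B the 7 markers measured, with other probe sets of Amhr2 and Inhba among them, each exceeded 100 on at least 1 array and summed to 3581.3 to 4493.5 in large antral and 3170.5 to 3912.9 in small antral oocytes. All 13 oocyte markers measured on 430A exceeded 100 on at least 1 antral array. In pooled samples, fewer cells of a type and less RNA per cell cannot be told apart. The control log2 ratio of 3 prime to 5 prime signal of Gapdh was lower in large antral arrays (2.37 ± 0.1 against 2.86 ± 0.06; SD, n = 4 each; exact two-sided permutation p = 0.0286, the smallest that 4 against 4 can give), and that of Actb was 3.08 ± 0.75 against 2.88 ± 0.37 (exact permutation p = 0.8). The part of RNA quality or of granulosa cell RNA in any result below was not tested.

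Among 430A probe sets, the change depended on how bright the probe set was. Of the 299 probe sets in the top 2% of mean signal, 121 were lower and 1 was higher in large antral oocytes, with a median log2 change of -0.21, whereas the median of all tested probe sets was 0.02. In the class between the 95th and 98th percentiles, 77 were lower and 13 higher, with a median of -0.07. On 430B the top 2% had a median of -0.03, with 21 lower and 10 higher. The 54 genes with a 430A probe set in that top 2% and a tested probe set on 430B had a median change of -0.2 on 430A and 0.04 on 430B. After quantile normalization, which gives every array the same distribution, 36 of the brightest 430A probe sets were lower and 24 higher, and their median change was -0.02. Calls on the most abundant oocyte transcripts of 430A therefore depend on the scaling, and both values are given where they differ.

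**Figure D1:**
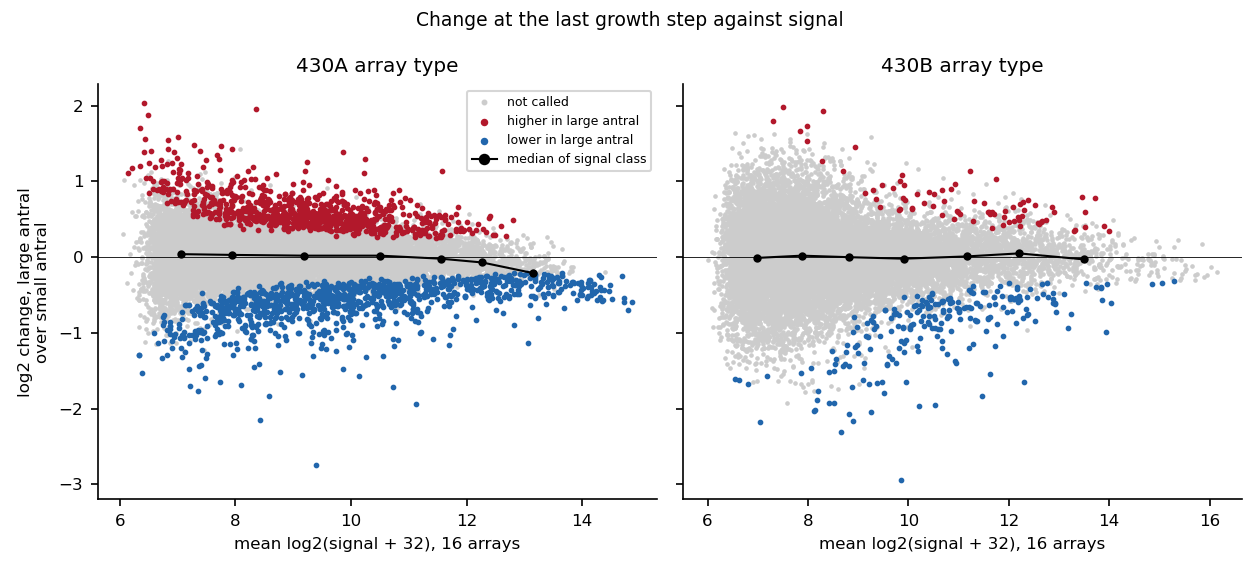
Log2 change of every tested probe set, large antral over small antral, against its mean log2 signal over 16 arrays, for 430A (left) and 430B (right). Red points were higher and blue points lower in large antral oocytes at an adjusted p under 0.05; the black line joins the medians of 7 signal classes and bends down to -0.21 for the brightest 430A class, against -0.03 on 430B.

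The largest falls and rises were chosen among calls with no overlap between the groups. Most calls met this condition, 1530 of 1844 on 430A and 287 of 308 on 430B. The share without overlap among all tested probe sets was not counted. The largest falls, each given for 1 probe set, included those of enzymes, transporters and regulators. Oga, which encodes the enzyme that removes O-linked N-acetylglucosamine from proteins, had signals of 27.4, 81.6, 67.4 and 39.0 in large antral oocytes, against 819.3, 365.8, 369.1 and 670.3 in small antral oocytes. The groups did not overlap, and the log2 change was -2.74 ± 0.23 (SE; limma adjusted p = 5.9e-07). Slc30a1, the plasma membrane zinc exporter, had the largest fall on 430B, with 39.7, 113.5, 108.3 and 91.9 in large antral oocytes, against 828.1, 774.3, 618.3 and 1385.4 in small antral oocytes (log2 change -2.95 ± 0.22, adjusted p = 1.9e-07). Every large antral array was below every small antral array. At the 2 earlier stages Slc30a1 had averaged 2445.4 in primary and 2791.5 in secondary oocytes. Bhlhe40, a basic helix-loop-helix repressor of transcription, averaged 30.6 ± 5.8 in large antral oocytes and 251.0 ± 72.1 in small antral oocytes (SD, n = 4 each; log2 change -2.15 ± 0.16, adjusted p = 3.7e-07). Hmga2, an architectural chromatin protein of embryonic and growing cells, averaged 207.4 ± 26.5 against 695.9 ± 200.2 (log2 change -1.57 ± 0.16, adjusted p = 5.3e-06). Of the 4 tested probe sets of Hmga2 1 was called. For both genes the small antral level was itself below the secondary level, which averaged 872.4 for Bhlhe40 and 2272.7 for Hmga2. The same downward course was seen for Slc26a2, a sulfate transporter, with 21.1 ± 5.2 in large antral oocytes, 142.5 ± 38.8 in small antral oocytes and 772.5 in secondary oocytes. Its fall of -1.69 ± 0.15 was called on each of its tested probe sets, the others showing -0.64 and -0.77. Esyt3, an extended synaptotagmin that tethers endoplasmic reticulum to the plasma membrane, averaged 44.5 ± 25.9 against 233.7 ± 51.3 (log2 change -1.83 ± 0.2, adjusted p = 1.1e-05).

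Other large falls on 430A were those of Atxn7l3b (-1.76), Ola1 (-1.7), Pank3 (-1.65), an enzyme of coenzyme A synthesis, Bzw1 (-1.6), Sdhc (-1.55), a subunit of succinate dehydrogenase, Akirin2 (-1.53), Hif1a (-1.51), the oxygen-regulated subunit of hypoxia-inducible factor, and Txnrd1 (-1.48), thioredoxin reductase. On 430B they were those of Psip1 (-2.3), a chromatin-bound transcription cofactor, Cdk13 (-2.18), a kinase of RNA polymerase II, Fam241a (-2.16), Btbd9 (-2.07), Ccdc127 (-2.04), Gk5 (-2.03) and Zfp597 (-2.02). Each of these changes had an adjusted p under 0.05 and no overlap between the groups, as their choice required. Against the 1 small antral array of 430B with its own protocol text, Cdk13 was at -1.97 and Ccdc127 at -1.54, neither called.

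A fall on 1 probe set was often not seen on the others of the gene. Hif1a averaged 196.4 in large antral and 599.0 in small antral oocytes on the probe set that fell, and 4193.2 and 3916.7 on its brightest probe set (log2 change 0.09, adjusted p = 0.69). Oga's brightest probe set had 2081.8 and 2233.4 (log2 change -0.1, adjusted p = 0.57), and a 430A probe set of Slc30a1 had 392.0 and 386.9 (log2 change 0.03, adjusted p = 0.95). Psip1 had 4547.5 and 3960.3 on its brightest 430A probe set (log2 change 0.2, adjusted p = 0.19). Of the 44 genes with the largest changes, 34 had further tested probe sets over both array types. No other probe set was called in 24 of these 34, all others were called the same way in 5, and in 5 another was called the opposite way. Over all 1919 genes with a called probe set, 1226 had further probe sets, and for 1034 of them none of those was called. Txnrd1 had 1 probe set that fell and a brighter one that rose, at 1157.5 in large antral and 827.0 in small antral oocytes (log2 change 0.48, adjusted p = 0.034); the rise was lost without small antral replicates 1 and 4. Probe sets of a gene read different stretches of its transcripts, and which transcript forms they read was not determined.

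The largest rises by fitted change were those of Prpf19 on 430A and of the predicted gene Gm31679 on 430B, which are described below, and Tcfl5 and Gja1 were among the next. Tcfl5, a basic helix-loop-helix transcription factor known from male germ cells, had 524.6, 851.9, 731.7 and 835.5 in large antral oocytes, against 181.3, 107.2, 169.5 and 204.3 in small antral oocytes. No large antral array reached down to the small antral range, as the choice required, and the log2 change was 1.96 ± 0.2 (adjusted p = 6.3e-06). It had averaged 256.5 in primary and 256.9 in secondary oocytes, and the small antral mean was below them (log2 change from secondary -0.53, adjusted p = 0.072). Gja1, connexin 43, the main gap junction protein of granulosa cells, had 426.8, 368.8, 404.5 and 350.1 in large antral oocytes, against 127.7, 53.9, 42.6 and 135.2 in small antral oocytes (log2 change 1.87 ± 0.29, adjusted p = 4.3e-04). All 5 of its probe sets rose, by 0.85 to 1.87, and it had averaged 1.2 in primary and 9.3 in secondary oocytes. The summed granulosa markers of 430A, Gja1 among them, are given above, and their part in this rise was not tested. Gja4, connexin 37, which the oocyte contributes to its junctions with granulosa cells, averaged 7313.0 ± 583.8 in large antral and 8268.8 ± 877.5 in small antral oocytes (log2 change -0.17 ± 0.09, adjusted p = 0.21).

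Zfp423, a zinc finger transcription factor, averaged 222.9 ± 35.3 in large antral and 48.7 ± 24.0 in small antral oocytes (log2 change 1.7 ± 0.31, adjusted p = 0.0015). Hspa1b, the heat-inducible Hsp70, averaged 917.2 ± 110.3 against 334.8 ± 77.4 (log2 change 1.39 ± 0.15, adjusted p = 7.9e-06), and its other probe sets each rose by 0.89. From secondary to small antral oocytes its log2 change had been -2.23 (adjusted p = 3.3e-09), with a mean of 1663.9 in secondary oocytes. Its probes can also read its near-identical neighbour Hspa1a. Prpf19, a ubiquitin ligase of the spliceosome, rose on 1 of its 5 probe sets (log2 change 2.03 ± 0.33, adjusted p = 6.5e-04), with changes between -0.4 and 0.22 on the others. Further rises on 430A were those of Sec61a1 (1.58), Cdadc1 (1.56), Fscn1 (1.54), an actin-bundling protein, Nckipsd (1.48), Rnf10 (1.43), Nap1l5 (1.43), Helb (1.4), a DNA helicase, Plekha4 (1.39) and Tmem229b (1.38). Sec61a1 and Helb each had another probe set that fell, by -0.36 and -1.03. The calls of Fscn1, Nckipsd, Nap1l5 and Plekha4 were lost without small antral replicates 2 and 3, and those of Sec61a1 and Rnf10 without replicates 1 and 4.

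On 430B the predicted gene Gm31679 (1.98), Rims3 (1.73), Mindy1 (1.54), Fzd6 (1.45), a Wnt receptor, Zfp668 (1.27), Pskh1 (1.14), Zbtb34 (1.14) and Atrnl1 (1.08) rose. The Zbtb34 call was marginal (adjusted p = 0.049), and its other, brighter probe set fell (-0.63, adjusted p = 0.019). Atrnl1, an attractin-like transmembrane protein, had 2038.9, 1672.7, 1968.1 and 1472.6 in large antral oocytes, against 727.6, 903.8, 949.7 and 722.9 in small antral oocytes (adjusted p = 5.9e-04). Against the 1 small antral array with its own protocol text, Atrnl1 was at 1.25, Gm31679 at 1.81, Rims3 at 1.66, Zfp668 at 1.37, Pskh1 at 0.8, Fzd6 at 0.76 and Mindy1 at 0.66, and of these only Atrnl1 was called.

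**Figure D2:**
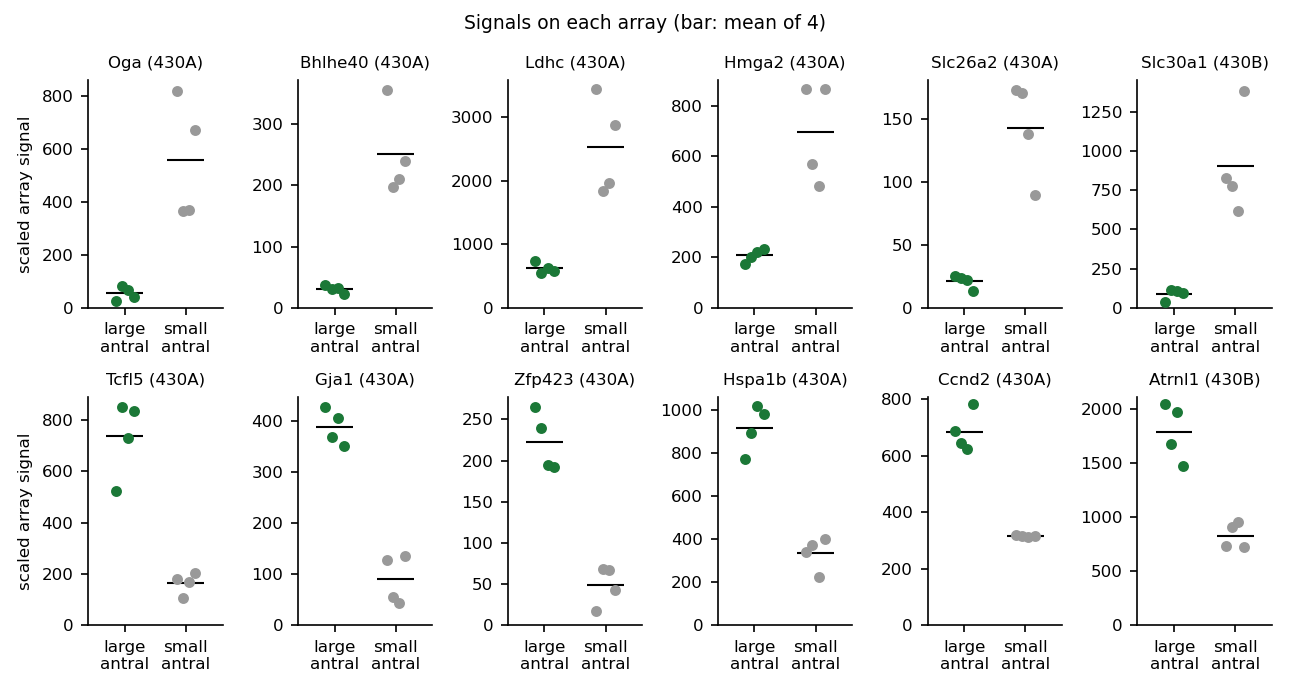
Scaled array signals of 12 genes on each array, large antral oocytes on the left of each panel and small antral oocytes on the right, with the mean of 4 as a bar. In no panel do the groups overlap, which was a condition of choice for every gene but Ccnd2. Oga, Bhlhe40, Ldhc, Hmga2, Slc26a2 and Slc30a1 were lower and Tcfl5, Gja1, Zfp423, Hspa1b, Ccnd2 and Atrnl1 higher in large antral oocytes.

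Promoter windows of 300 bases (250 before to 50 after the annotated start, RefSeq, GRCm38.p6) were matched for 576 of 713 genes called only upward and 813 of 997 called only downward. The windows below are those of Oga and Slc30a1, with the largest falls on single probe sets, and of 2 strongly rising genes. They are printed to show how unlike they are in GC-box content. The other tested probe sets of Oga and Slc30a1 had no call. Capitals mark GGGCGG (the Sp1 box) and CCAAT on either strand, and motifs may overlap.
Oga: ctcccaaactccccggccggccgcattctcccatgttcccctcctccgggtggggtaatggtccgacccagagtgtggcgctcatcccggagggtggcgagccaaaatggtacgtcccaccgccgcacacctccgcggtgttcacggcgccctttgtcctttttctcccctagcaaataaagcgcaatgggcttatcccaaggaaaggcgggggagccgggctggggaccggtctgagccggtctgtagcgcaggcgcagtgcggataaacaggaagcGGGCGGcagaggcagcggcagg
Slc30a1: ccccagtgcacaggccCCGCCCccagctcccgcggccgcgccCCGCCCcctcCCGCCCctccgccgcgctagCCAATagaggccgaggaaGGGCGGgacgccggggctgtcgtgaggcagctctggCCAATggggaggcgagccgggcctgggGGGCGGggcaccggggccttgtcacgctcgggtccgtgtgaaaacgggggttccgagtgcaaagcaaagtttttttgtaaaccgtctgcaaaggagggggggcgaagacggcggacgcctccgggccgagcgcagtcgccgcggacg
Tcfl5: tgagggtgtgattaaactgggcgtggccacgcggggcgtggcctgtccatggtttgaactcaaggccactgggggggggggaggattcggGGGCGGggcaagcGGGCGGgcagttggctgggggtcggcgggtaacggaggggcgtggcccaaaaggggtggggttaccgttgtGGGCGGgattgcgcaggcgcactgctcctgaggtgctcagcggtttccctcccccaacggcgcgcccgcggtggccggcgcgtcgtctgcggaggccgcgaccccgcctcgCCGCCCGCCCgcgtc
Gja1: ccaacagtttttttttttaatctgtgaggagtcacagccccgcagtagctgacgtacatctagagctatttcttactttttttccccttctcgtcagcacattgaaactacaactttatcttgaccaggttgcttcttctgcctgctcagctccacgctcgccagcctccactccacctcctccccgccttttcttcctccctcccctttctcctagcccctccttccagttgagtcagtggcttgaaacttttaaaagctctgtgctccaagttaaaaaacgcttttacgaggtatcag
These windows lie at chr19:45783504-45783803 (minus strand) for Oga, chr1:191906531-191906830 (plus strand) for Slc30a1, chr2:180642642-180642941 (minus strand) for Tcfl5 and chr10:56377050-56377349 (plus strand) for Gja1. Slc30a1 and Tcfl5, whose called probe sets moved in opposite directions, each held 5 Sp1 boxes at a GC content of 73%, and Gja1 held 0 at 47.7%. The Sp1 box was present in 64.8% of windows of genes that rose, 66.4% of genes that fell and 55.6% of all tested genes. TATAAA was present in 6.7%, 8.0% and 8.7%, CACGTG (the E-box) in 11.9%, 10.8% and 9.0%, CCAAT in 37.9%, 37.5% and 37.3%, and the homeodomain core TAATTG or TAATTA in 6.7%, 6.2% and 8.2%. Over all promoters of the reference the Sp1 box was present in 35.7% of windows and TATAAA in 13.6%. No test was made, and a match of letters is not a binding site.

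Lactate dehydrogenases changed in both directions. Ldhc, the germ cell form of the enzyme, had 733.1, 547.2, 624.4 and 578.3 in large antral oocytes, against 3435.3, 1840.7, 1964.3 and 2876.2 in small antral oocytes (log2 change -1.93 ± 0.15, adjusted p = 3.7e-07), and its second probe set fell by 1.71 on the log2 scale. The whole large antral range lay below the lowest small antral array, as the choice among the largest falls required. Ldhb, the form that dominates mouse oocytes, averaged 19574.2 ± 2113.9 against 31645.7 ± 2667.3 (log2 change -0.69 ± 0.09, adjusted p = 3.9e-05). The fall of Ldhb was called on all its probe sets (-0.44 to -0.69) and was -0.33 under quantile normalization. Ldha, the muscle form, rose to 205.1 ± 34.0 in large antral oocytes, against 96.4 ± 28.1 in small antral oocytes (log2 change 0.9 ± 0.25, adjusted p = 0.024). That rise was lost without small antral replicates 1 and 4 and without replicates 2 and 3. In the list of glucose uptake, glycolysis and lactate dehydrogenases, 2 of 27 tested genes rose and 3 fell (median log2 change 0.05). The other called members were the glucose transporter Slc2a3 (0.57) and the monocarboxylate transporter Slc16a1 (-0.63), at 205.2 and 67.4 in large antral oocytes. Both lost their calls without small antral replicates 1 and 4.

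Zona pellucida glycoproteins and the growth factors that oocytes secrete were lower in large antral oocytes under the main scaling: 0 of 12 tested genes rose and 6 fell, with a median log2 change of -0.31 beside 0.01 for all genes. Zp3, a zona pellucida glycoprotein, averaged 15569.5 ± 1729.7 against 22958.9 ± 2074.1 (log2 change -0.56 ± 0.08, adjusted p = 2.2e-04). Gdf9, which drives granulosa cell growth, had 21492.1, 20069.7, 18810.1 and 23261.0 in large antral oocytes, against 28719.8, 32791.2, 31808.3 and 27778.5 in small antral oocytes (log2 change -0.53 ± 0.07, adjusted p = 8.2e-05). The groups did not overlap for either gene. Zp2 (-0.39), Oosp1 (-0.44) and Bmp15 (-0.6) also fell, and Zp1 showed -0.21 (adjusted p = 0.13). These genes sit among the brightest of the array, except Bmp15, which averaged 1666.2 ± 249.3 against 2528.5 ± 315.6. Under quantile normalization the changes were -0.13 for Zp3, -0.14 for Gdf9, -0.02 for Zp2 and -0.01 for Oosp1, all without a call, and -0.59 for Bmp15, which kept its call; 2 list members then fell. Bmp15 lost its call without small antral replicates 1 and 4, and its 430B probe sets showed 0.36 and -0.26 without a call.

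**Figure D3:**
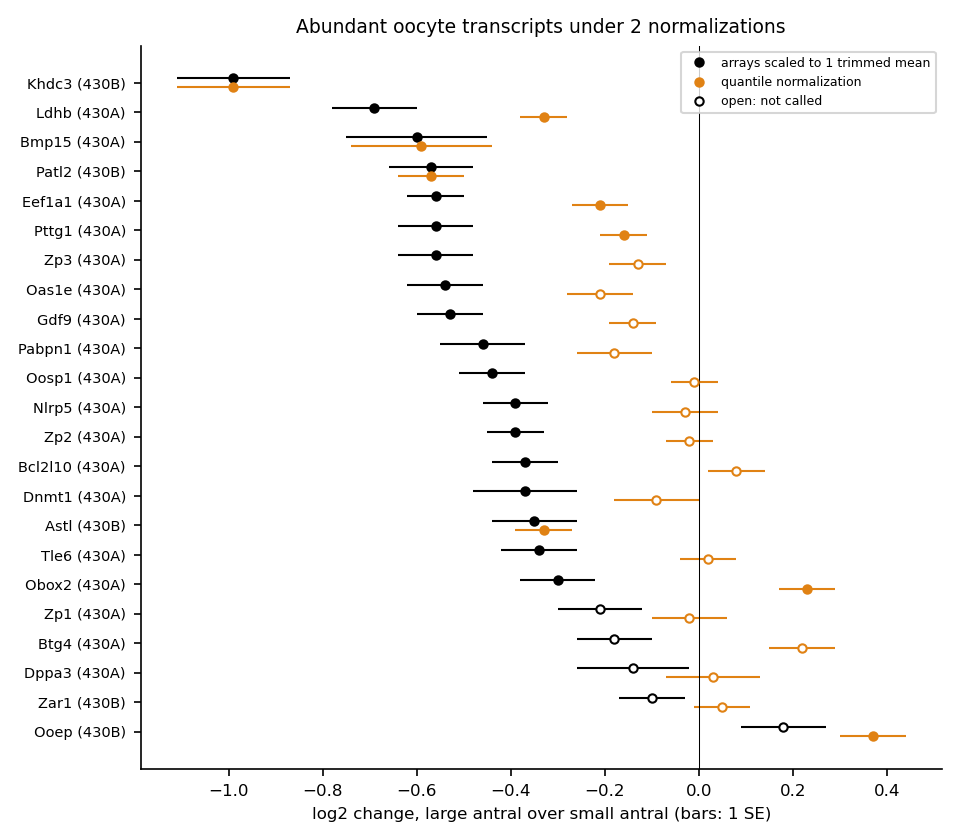
Log2 change, large antral over small antral, with 1 SE, for 23 abundant oocyte transcripts under the trimmed mean scaling (black) and under quantile normalization (orange); filled points passed an adjusted p of 0.05. Khdc3, Bmp15, Patl2 and Astl moved little between the 2 normalizations, while Zp3, Gdf9, Oosp1 and Zp2 shifted close to 0.

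Maternal-effect genes, whose products the embryo needs from the egg, changed in both directions: 5 of 33 tested genes rose and 5 fell (median -0.08). Khdc3, a member of the subcortical maternal complex, had the largest fall, with 6251.1, 7764.2, 8022.4 and 6402.1 in large antral oocytes, against 16140.9, 10969.6, 12774.9 and 17289.2 in small antral oocytes (log2 change -0.99 ± 0.12, adjusted p = 2.0e-04). Its mean fell in each stage interval, with 26508.9 in primary and 23453.4 in secondary oocytes, although the first interval was not called (adjusted p = 0.56). Other proteins of that complex showed smaller or no change. Nlrp5 (-0.39) and Tle6 (-0.34) fell under the main scaling and were at -0.03 and 0.02 under quantile normalization, and Ooep, measured on 430B, averaged 62051.5 ± 5842.0 against 54613.8 ± 2105.0 (log2 change 0.18 ± 0.09, adjusted p = 0.44) and was called at 0.37 under quantile normalization. Zar1 (-0.1) and Dppa3 (-0.14) were not called. Cdh1, E-cadherin, which links the oocyte to its granulosa cells, rose to 2405.5 ± 209.1 in large antral oocytes, against 1510.1 ± 229.2 (log2 change 0.67 ± 0.12, adjusted p = 0.0011), and Pou5f1 rose by 0.42 (adjusted p = 0.047), a call lost under quantile normalization, among other alternatives.

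Among DNA methylation and imprint protection genes, 0 of 21 rose and 3 fell (median -0.05). Dnmt3a, the de novo methyltransferase that sets maternal imprints, fell by 0.83 on the log2 scale (adjusted p = 0.014) on its chosen probe set, at 663.9 in large antral and 1229.3 in small antral oocytes. A pair of its other probe sets rose, by 0.51 and 0.54, so the gene has no single direction here. Zfp445, a zinc finger protein that protects imprints, fell by 0.8 (adjusted p = 0.0047), and Dnmt1, the maintenance methyltransferase, by 0.37 (adjusted p = 0.031). The Dnmt1 fall was -0.09 without a call under quantile normalization, and the calls of Dnmt3a and Zfp445 were lost without small antral replicates 1 and 4. Among the oocyte Nlrp, Obox, Oog and Tcl1 families, 1 of 25 rose (Nlrp4e, 0.46) and 5 fell under the main scaling, and 2 rose and 1 fell under quantile normalization. Obox2, an oocyte homeobox gene, changed by -0.3 under the first and 0.23 under the second, both past the threshold. Of 22 oocyte transcription factors 1 rose and 4 fell (median -0.02), among them Taf4b (-0.54), a germ cell subunit of the general transcription factor TFIID. Against the 1 small antral array of 430B with its own protocol text, Nlrp4e was at 0.4 and Taf4b at -0.58, neither called. The call of Dnmt1 was lost without replicates 2 and 3 of 430A.

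Of genes of meiotic arrest 9.09% were called, against 8.37% of all genes tested over both array types. Most of them were read on 430A, where 4.84% of genes rose and 7.23% fell. In the list of cAMP and cGMP signalling, which holds the oocyte in prophase, 2 of 22 tested genes rose and 0 fell (median -0.03). Gpr12, a receptor that raises cAMP, had 277.2, 173.8, 184.9 and 133.2 in large antral oocytes, against 43.7, 76.1, 73.0 and 112.7 in small antral oocytes (log2 change 1.05 ± 0.31, adjusted p = 0.032), and Akap10, an anchoring protein of protein kinase A, rose by 0.69. Both calls were lost without either pair of small antral arrays. The related receptor Gpr3, which maintains arrest in mouse oocytes, averaged 995.1 ± 94.8 against 857.8 ± 197.5 (log2 change 0.23 ± 0.14, adjusted p = 0.3).

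Of 27 tested regulators of maturation promoting factor 4 rose and 2 fell (median 0.07). Cdk1, its kinase, averaged 3115.6 ± 160.8 in large antral and 3716.7 ± 367.7 in small antral oocytes (log2 change -0.25 ± 0.08, adjusted p = 0.049). The inhibitor subunit Ppp1r2 also fell (-0.67). The rises were those of Cdkn1b (0.63), Plk1 (0.42), Arpp19 (0.32) and Ccna2 (0.27), and each of them lost its call when 1 or the other pair of small antral arrays was left out. The cyclin Ccnb2 (0.15, adjusted p = 0.37), the activating phosphatase Cdc25b (0.24, adjusted p = 0.29) and the kinase Mos (-0.09, adjusted p = 0.53) were not called. In the Mos and MAP kinase list 0 of 12 rose and 2 fell, the RNA helicase Ddx6 and the meiotic inhibitor Fbxo43, neither of which is a kinase of that pathway. In the anaphase promoting complex and securin list 1 of 21 rose and 3 fell (median 0). Pttg1, securin, averaged 18312.7 ± 1984.6 against 26968.4 ± 3193.8 (log2 change -0.56 ± 0.08, adjusted p = 2.5e-04) and was -0.16 with a call under quantile normalization. Of the 3 tested probe sets of Pttg1 1 was called. Fbxo43, the Emi2 inhibitor of the anaphase promoting complex, fell by 0.96 at signals of 28.9 and 88.3. Among 40 spindle genes Ttk, the checkpoint kinase Mps1, rose to 3873.3 ± 172.9 in large antral oocytes, against 2652.4 ± 356.2 (log2 change 0.55 ± 0.09, adjusted p = 7.6e-04), and 2 fell, 1 of them the centromere histone Cenpa (-0.4). Of 32 genes of meiotic prophase and cohesin 4 rose and 3 fell, with Rad21, the mitotic cohesin kleisin (0.59), and Msh5 (1.11) among the rises and Trip13 (-0.63) and the germ cell helicase Ddx4 (-0.53) among the falls. Cdk1, Ppp1r2, Fbxo43, Cenpa, Trip13 and Ddx4 lost their calls without small antral replicates 1 and 4, and Cenpa and Msh5 without replicates 2 and 3.

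Some transcripts for proteins that bind, store and dismantle mRNA fell and fewer rose, while most were not called. Called shares were 13.6% in the binding and masking list and 21.4% in the decay list. Among all genes, 4.84% rose and 7.23% fell where read on 430A, and 0.785% and 1.64% where read on 430B alone. Of 44 genes of mRNA binding, masking and cytoplasmic polyadenylation 1 rose and 5 fell (median -0.01), and of 56 genes of deadenylation and decay 4 rose and 8 fell (median 0.06). Ddx6, an RNA helicase of the stored mRNA particles, had 294.7, 502.3, 467.6 and 482.1 in large antral oocytes, against 1177.2, 1026.0, 1008.8 and 1260.6 in small antral oocytes (log2 change -1.32 ± 0.14, adjusted p = 8.0e-06). The fall was called on each of its 430A probe sets, and its 430B probe set showed -0.16. Patl2, an oocyte partner of Ddx6 in mRNA storage, fell to 8376.0 ± 771.2, against 12402.1 ± 851.3 (log2 change -0.57 ± 0.09, adjusted p = 8.6e-04). Its secondary level had been 22588.4. Pabpc4, a cytoplasmic poly(A)-binding protein, fell by 0.5 (adjusted p = 0.0042).

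Ythdf1, a reader of N6-methyladenosine in mRNA, averaged 1537.6 ± 87.2 in large antral and 3009.6 ± 219.7 in small antral oocytes (log2 change -0.95 ± 0.08, adjusted p = 5.9e-07), and its other probe sets fell by 0.88 and 0.58. The probe set at -0.88 is 1 of 100 non-control probe sets of 430A whose deposited antral values, unlike the rest, are not in steps of 0.1 (tolerance 0.002); of these, 17 were called, and why they differ is not stated. The decapping enzyme Dcp2 fell by 0.68 (adjusted p = 4.7e-04) and Lsm1, a subunit of the ring that binds shortened tails, by 0.73 (adjusted p = 4.1e-05). In contrast the decapping cofactor Dcp1a rose by 0.66 (adjusted p = 0.025) and Cnot4 by 0.63 (adjusted p = 0.025), both with no call once small antral replicates 1 and 4 were left out. The other rises of the decay list were those of Pan2 (0.63, adjusted p = 0.0025) and, on 430B, Cnot11 (0.41, adjusted p = 0.004). The calls of Pan2 and Cnot11 under the alternatives were not examined. Btg4 and Cnot6l, which recruit and form the deadenylase of egg maturation, showed -0.18 and -0.22 with adjusted p of 0.13 and 0.16. Under quantile normalization Btg4 was at 0.22 (adjusted p = 0.053). The masking proteins Ybx2 (0.48, adjusted p = 0.16) and Cpeb1 (0.21, adjusted p = 0.098) and the oocyte poly(A)-binding protein Pabpn1l (0.3, adjusted p = 0.21) were likewise not called, though Cpeb1 was called at 0.27 under quantile normalization. Ybx2 ranged between 1600.8 and 2027.0 in large antral oocytes, against 692.9, 1928.7, 1784.6 and 1030.2 in small antral oocytes, so replicates 1 and 4 were the low ones. Piwil2, a piRNA-binding protein of the germ line, fell to 96.1 ± 10.5, against 210.4 ± 23.4 (log2 change -0.92 ± 0.13, adjusted p = 1.1e-04), 1 of 2 falls among 35 small RNA genes.

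Among the 52 lists, heat shock proteins and chaperones held the most falls: 16 of 68 tested genes fell and 4 rose (median -0.07), and 12 fell under quantile normalization. They included the cytosolic chaperonin subunits Cct3, at 7194.7 ± 908.0 in large antral and 11139.7 ± 656.6 in small antral oocytes (log2 change -0.63 ± 0.09, adjusted p = 1.1e-04), and Cct2 (-0.53). Pfdn2, a subunit of prefoldin that hands substrates to the chaperonin, fell by 0.82 (adjusted p = 0.0013), and Hsph1, a nucleotide exchange factor of Hsp70, by 0.53 (adjusted p = 6.6e-04). The heat-inducible Hspa1b ran the other way, as given above, and Bag6 rose by 1.21 (adjusted p = 0.013) at signals of 111.7 and 30.0. The other probe sets of Cct3 (-0.31 to 0.41) and Cct2 (-0.06 and 0.35) had no call. Translation genes were mixed, beside 4.84% rises and 7.23% falls among all genes read on 430A. Eef1a1, the elongation factor that delivers tRNA, fell to 13945.7 ± 354.2, against 20675.6 ± 1407.6 (log2 change -0.56 ± 0.06, adjusted p = 9.5e-06; -0.21 with a call under quantile normalization), 1 of 5 falls and 4 rises among 57 factors. Of 45 cytoplasmic ribosomal proteins 1 rose and 2 fell, the rise being that of Rplp2 (0.56, adjusted p = 0.0025), and of 40 proteasome subunits 1 rose (Psmd2, 0.53) and 3 fell. The calls of Bag6 and Psmd2 were lost without small antral replicates 1 and 4.

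**Figure D4:**
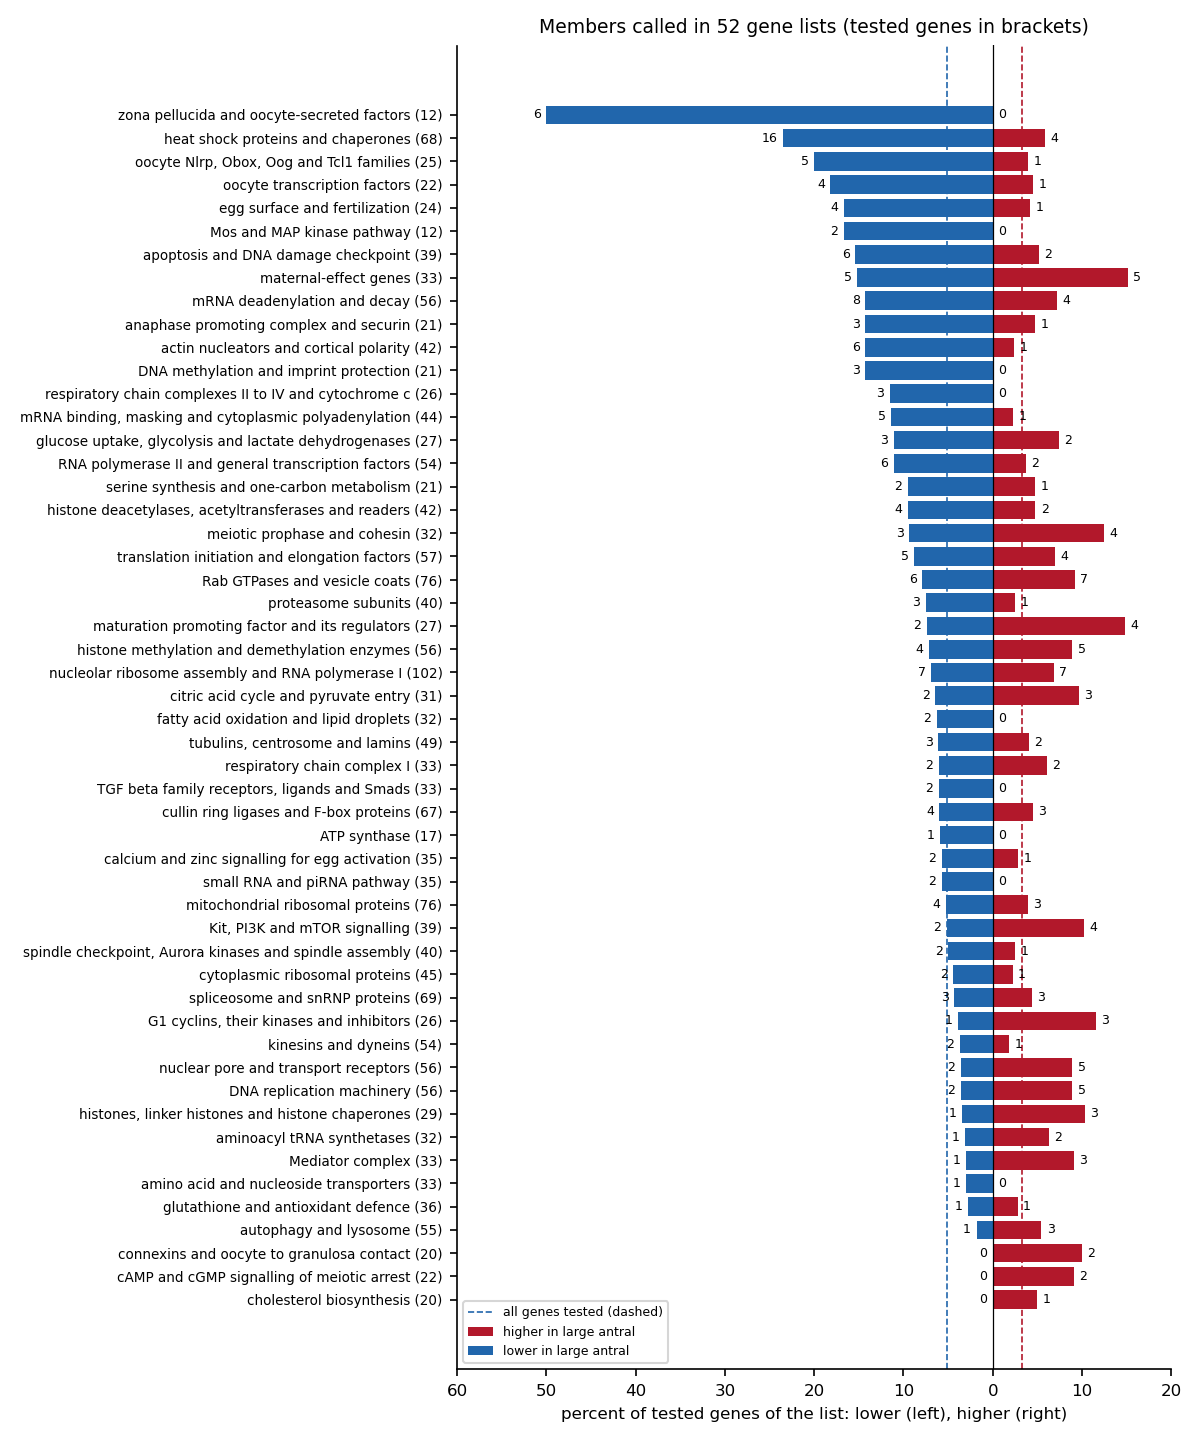
Percent of the tested genes of each of 52 gene lists that were higher (red, right) or lower (blue, left) in large antral oocytes, with the number of genes at each bar and the tested genes in brackets. Dashed lines mark all genes tested over both array types, 3.28% higher and 5.09% lower (4.84% and 7.23% of genes read on 430A); the zona and secreted factor list reached 6 falls of 12 and the chaperones 16 of 68.

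Genes of mitochondrial energy metabolism moved in both directions. Called shares were 16.1% in the citric acid cycle list, 11.5% in complexes II to IV and 12.1% in complex I. Among all genes read on 430A, 4.84% rose and 7.23% fell, so these lists lie near the background. In the citric acid cycle list 3 of 31 rose and 2 fell (median 0.08): Ogdh, the 2-oxoglutarate dehydrogenase subunit, rose to 320.2 ± 52.2, against 153.2 ± 77.6 (log2 change 1.02 ± 0.25, adjusted p = 0.011), while Idh3b (-0.58) and Sdhb (-0.36) fell. Among respiratory complexes II to IV 0 of 26 rose and 3 fell, with Cox6c at 3398.8 ± 363.2 against 4685.9 ± 146.2 (log2 change -0.47 ± 0.09, adjusted p = 0.002). Complex I had 2 rises and 2 falls among 33. Phgdh, the first enzyme of serine synthesis, fell by 0.65 (adjusted p = 0.0011) on 1 probe set, and its others lay between -0.05 and 0.15. Ogdh and Sdhb lost their calls without small antral replicates 1 and 4, and Idh3b without replicates 2 and 3.

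Survival and cell cycle regulators changed in both directions, beside 4.84% rises and 7.23% falls among all genes read on 430A. Of 39 genes of apoptosis and DNA damage checkpoint 2 rose and 6 fell (median 0.03). Mcl1, an anti-apoptotic Bcl2 relative, had 565.9, 631.8, 592.4 and 773.4 in large antral oocytes, against 1219.5, 1385.2, 1271.8 and 1042.5 in small antral oocytes (log2 change -0.91 ± 0.11, adjusted p = 2.8e-05), and all but 1 of its 6 probe sets fell past the threshold. Bcl2l10, an oocyte-expressed Bcl2 relative, fell by 0.37 (adjusted p = 0.0024) under the main scaling and was at 0.08 under quantile normalization. Trp63, guardian of the oocyte genome, fell by 0.52 (adjusted p = 0.0067), and the pro-apoptotic Bad rose by 0.9 (adjusted p = 0.026) at signals of 119.9 and 50.9. Trp63 lost its call without small antral replicates 1 and 4, and Bad without replicates 2 and 3.

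Ccnd2, cyclin D2, had 686.1, 643.7, 623.1 and 783.6 in large antral oocytes, against 319.5, 314.2, 311.6 and 317.0 in small antral oocytes (log2 change 1.04 ± 0.13, adjusted p = 3.4e-05), with 2 of its 4 other probe sets called upward. Cyclin D2 is also a known product of granulosa cells. Ccne2, cyclin E2, ran the opposite way, at 136.7 ± 32.3 against 321.5 ± 98.1 (log2 change -1.04 ± 0.18, adjusted p = 0.0013), down from 1154.4 in secondary oocytes. In the Kit, PI3K and mTOR list 4 of 39 rose and 2 fell (median 0.15). Kit, the oocyte receptor for the granulosa ligand, rose by 0.5 (adjusted p = 0.031) on its brighter probe set and fell by 0.79 (adjusted p = 0.004) on the dimmer one, and the first call was lost without small antral replicates 1 and 4. Prkaa2, a catalytic subunit of the energy sensor AMP-activated kinase, fell to 734.4 ± 76.2, against 1455.0 ± 233.8 (log2 change -0.95 ± 0.14, adjusted p = 7.0e-04). Of 20 tested connexin and contact genes 2 rose, Gja1 and Cdh1. Among 19 tested granulosa and cumulus markers Gja1 rose and Nr5a2, a nuclear receptor, fell (-0.55, adjusted p = 0.0034), and 0 of 8 theca and stroma, 0 of 6 endothelial and blood and 0 of 7 immune markers were called. Of 4 tested markers of the ovarian surface epithelium 1, Cdh1, rose (median 0.35). The 10 such markers on 430A, Cdh1 among them, summed to 2775.3 to 3206.5 in large antral and 1898.9 to 2490.7 in small antral oocytes. These ranges did not overlap, and 7 of the 10 were under 100 on all 8 arrays. Cdh1 alone averaged 2405.5 and 1510.1, so the sums largely restate its rise. Whether RNA of surface epithelium had a part in the rise of Cdh1 was not tested.

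Genes of chromatin and transcription changed in both directions. Called shares of the lists given here ran from 12.1% to 16.1%. Among all genes read on 430A, 4.84% rose and 7.23% fell, so these lists lie near the background. Of 56 histone methylation and demethylation enzymes 5 rose and 4 fell (median 0.11), with the demethylase Kdm4a up by 0.89 (adjusted p = 0.01) and the arginine methyltransferase Carm1 by 0.65 (adjusted p = 0.018). Of 42 histone deacetylases, acetyltransferases and readers 2 rose and 4 fell, among them Hat1 (-0.46) and Brd8 (-0.79). Of 54 genes of RNA polymerase II and the general transcription factors 2 rose and 6 fell (median -0.09). Cdk9, the kinase that releases paused polymerase, averaged 338.6 ± 66.3 in large antral and 516.7 ± 36.2 in small antral oocytes (log2 change -0.58 ± 0.12, adjusted p = 0.0031), and Gtf2h4, a TFIIH subunit, fell by 0.69 (adjusted p = 0.022). In the Mediator complex 3 of 33 rose and 1 fell, with Med15 up by 0.86 (adjusted p = 0.024); its small antral replicates 1 and 4 were at 476.3 and 501.4 and replicates 2 and 3 at 1051.5 and 1049.1, against 1228.0 to 1457.5 in large antral oocytes. Among 56 nuclear pore and transport genes 5 rose and 2 fell. Kpnb1, importin beta, rose by 0.54 (adjusted p = 0.0051), and Ran, the GTPase that sets the direction of transport, fell to 2980.2 ± 208.8, against 4456.2 ± 576.6 (log2 change -0.57 ± 0.08, adjusted p = 2.5e-04). Of the 5 tested probe sets of Ran 1 was called. Against the 1 small antral array of 430B with its own protocol text, Kdm4a was at 0.93 without a call. The calls of Carm1, Hat1, Brd8, Gtf2h4, Med15 and Kpnb1 were lost without small antral replicates 1 and 4.

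Of 24 tested genes of egg surface and fertilization 1 rose and 4 fell (median -0.1). Together 20.8% were called, against 8.37% of all genes tested over both array types. Most of the list was read on 430A, where 4.84% of genes rose and 7.23% fell. Cd9, the tetraspanin needed for sperm fusion, averaged 742.1 ± 121.2 against 1205.7 ± 312.8 (log2 change -0.65 ± 0.15, adjusted p = 0.0082) and was at -0.66 under quantile normalization. Oas1e (-0.54), an oocyte-expressed relative of the antiviral synthetases, was at -0.21 without a call there. Astl, the protease ovastacin that hardens the zona, fell by 0.35 on 430B (adjusted p = 0.037). Fetub, fetuin-B, its inhibitor known from blood, rose to 853.7 ± 16.8 in large antral oocytes, against 598.0 ± 92.8 (log2 change 0.5 ± 0.12, adjusted p = 0.0088), and had averaged 229.9 in secondary oocytes. Against the 1 small antral array of 430B with its own protocol text, Astl was at -0.26 without a call. The Cd9 call was lost without small antral replicates 1 and 4, and the Fetub call without replicates 2 and 3.

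The change at this step was also compared with the change from primary to secondary oocytes, which rests on other arrays. On 430A, 458 of the 807 rises (56.8%) and 637 of the 1037 falls (61.4%) differed from the change at the earlier step at a limma adjusted p under 0.05, against 20.4% of all tested probe sets, a share that the choice of large changes at 1 of the 2 steps raises. Of the 807 rises 79 had also risen and 130 had fallen between primary and secondary oocytes, and of the 1037 falls 207 had risen and 132 had fallen, against 11.3% that rose and 9.39% that fell there among all tested. On 430B, 40 of 79 rises and 124 of 229 falls differed from the earlier step, against 4.65% of all tested. Tcfl5 (adjusted p of the difference = 5.9e-05), Bhlhe40 (3.6e-06), Ldhc (4.9e-07), Slc30a1 (1.8e-06), Gdf9 (1.7e-05) and Mcl1 (7.9e-05) changed differently at the 2 steps. The difference was fitted under the main scaling only. For Piwil2 (0.38), Trp63 (0.75), Ran (0.59), Dcp2 (0.7) and Cox6c (0.6), each lower at both steps in its mean, no difference between the steps was detected. Levels at the 4 stages showed several courses. Under the main scaling, Zp3 and Ldhb had no called change before the fall in large antral oocytes. Gdf9 rose from primary to secondary oocytes (adjusted p = 0.01) before it fell. Khdc3 and the called 430B probe set of Slc30a1 were lower already in small antral oocytes, and Ldha and Gja1 rose in both of the last 2 intervals. The falls of Zp3 and Gdf9 in large antral oocytes had no call under quantile normalization.

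**Figure D5:**
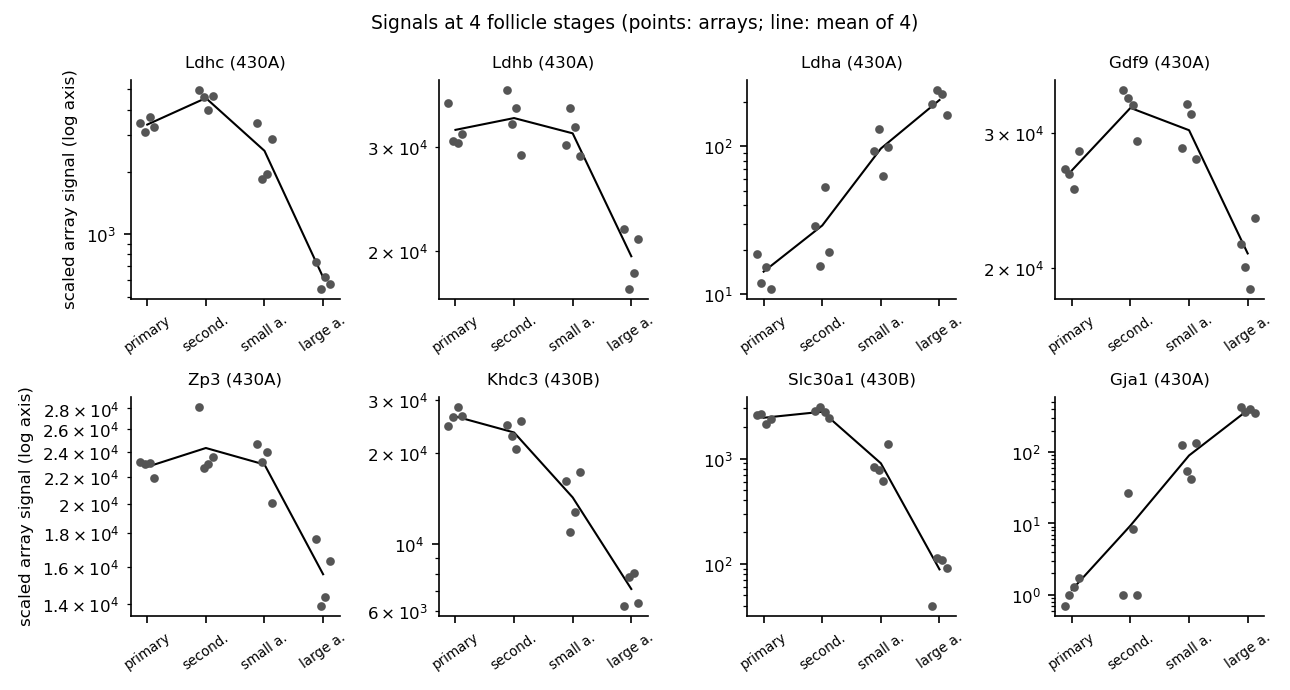
Scaled array signals (log axis, scale differing between panels) of 8 genes at the primary, secondary, small antral and large antral stages, with 4 arrays a stage as points and their mean as a line. Ldhc and Slc30a1 have their lowest values in large antral oocytes, at 620.8 and 88.3 on average, and Gja1 its highest, at 387.6.

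Genes measured on both array types gave a second reading of the same comparison. Of 2562 genes with tested probe sets on both, 450 were called on 430A, 91 on 430B and 27 on both, which is 6.0% of the first and 29.7% of the second. The direction was the same for 24 of the 27. Ecpas and Srr were called in opposite directions, and Mindy1 rose on 430B but had 430A probe sets called both ways. These 3 genes were singled out after their values were seen. The labels do not say whether the 430A and 430B samples came from the same RNA.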

How the data were processed

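Oocyte RNA was labelled and hybridised to Affymetrix 430A and 430B arrays. The deposited values are linear signal intensities, 1 per probe set and array, made with MAS5 per the submitters' processing notes; the deposited trimmed means were near equal across arrays. Each array type was analysed apart. Signals were scaled to a trimmed mean of 500 (2% trimmed at each end), and log2(signal + 32) over the 16 arrays of 4 stages was modelled in R 4.3.3 by limma 3.58.1, with moderated variances that follow the mean signal. A log2 change is on that scale, which understates the change of dim probe sets. Probe sets with a signal of 100 on at least 4 arrays were tested. Calls used Benjamini-Hochberg adjusted p under 0.05 over all tested probe sets of an array type. Probe sets were named through the platform annotation: 20380 of 22626 on 430A and 14565 of 22411 on 430B had 1 symbol. For lists, 1 probe set per gene was used, 430A before 430B and then the brightest. Genes named are the 14 largest rises and falls on 430A and the 8 on 430B among calls with no overlap, up to 4 called members of a list in each direction with the smallest adjusted p, and a fixed set of oocyte genes. The members, lists and named genes were chosen with earlier results of these data known. Same-numbered samples of the 2 groups did not deviate together (correlations -0.072 to 0.06), so the numbers pair nothing. The fit was tested on simulated data. Precision is limited by 4 arrays a group; no detection calls were used.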

Additional observations from a re-analysis of the deposited data

Results flagged for a closer look

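In 14 of 296 groups of 4 arrays, 4.7%, 1 array stood apart from the other 3 beyond Dixon's 95% critical value, and chance gives about 1 in 20. In large antral oocytes these were Atxn7l3b in replicate 2 (53.9, others 20.8 to 23.5), Ddx6 in replicate 1 (294.7, others 467.6 to 502.3), a second probe set of Hspa1b in replicate 1 (1320.1, others 1626.1 to 1669.8), Bag6 in replicate 2 (55.2, others 124.2 to 137.2) and Dppa3 in replicate 1 (10453.7, others 9038.5 to 9115.8). In small antral oocytes they were Ola1 in replicate 1 (189.2, others 88.6 to 95.6), Cdk13 in replicate 2 of 430B (359.6, others 205.0 to 218.3), Dnmt3a in replicate 2 (758.4, others 1375.0 to 1399.6) and Zp1 in replicate 1 (9379.8, others 11647.5 to 11959.8). Small antral replicate 4 of 430A stood apart for Obox2 (22396.0, others 27617.9 to 28161.8), Pabpc4 (2578.4, others 1836.5 to 1926.4), Cdk9 (570.5, others 492.0 to 503.1) and Bcl2l10 (23602.4, others 27200.9 to 27521.1). The control log2 ratio of 3 prime to 5 prime signal of Gapdh stood apart in small antral replicate 2 (2.95, others 2.82 to 2.84).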

How the results depend on the processing

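Of 129 called probe sets named and followed through the alternatives, 57 kept their call under every alternative that tested them. Whichever 1 replicate was left out, 93 kept it. The filter at a signal of 200 tested 126 of the 143 probe sets followed, called or not. The causes of the losses were not tested. Leaving out 1 replicate gave 1205 to 1854 calls on 430A (444 to 825 higher, 761 to 1029 lower, 128 to 215 at least 2-fold) and 185 to 371 on 430B (36 to 161 higher, 143 to 257 lower, 65 to 117 at least 2-fold). Chosen after seeing the data, leaving out small antral replicates 1 and 4 of 430A gave 1042 calls (451 higher, 591 lower) and changed Gpr3 to -0.05 and Ybx2 to -0.07; leaving out replicates 2 and 3 gave 342 calls of at least 2-fold. On 430A, calls of at least 2-fold numbered 71 with a pseudocount of 64 and 103 with a filter at a signal of 200. On 430B, calls numbered 186 (32 higher) with arrays scaled to the same median, 130 (33 higher, 97 lower, 46 at least 2-fold) with only the antral stages in the fit, and 91 (8 higher, 83 lower, 50 at least 2-fold) without a mean-variance trend. Leaving out the 3 small antral samples of 430B with another protocol text leaves 1 small antral array, assumed to vary like the other groups, and gave 181 higher, 106 lower and 190 at least 2-fold. The share of higher calls on 430B was 25.6% as reported, 63.1% against that 1 array, 14.6% to 43.4% with any 1 array left out, and 8.8% without the trend. Quantile normalization turned Tle6 (0.02), Obox2 (0.23), Bcl2l10 (0.08), Dppa3 (0.03), Zar1 (0.05), Mos (0.03) and Btg4 (0.22). With a replicate block, higher and lower calls were 831 and 1042 on 430A and 96 and 216 on 430B; the numbers do not pair the samples.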
